A study of Homo sapiens with 7 samples.

Results

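RNA levels in PLZF/RARA-expressing U937 cells given the EZH2 inhibitor GSK126 were compared with those in the parental U937 cells, to see which differences between the lines persist when EZH2 is inhibited. U937 is a human line of monocytic character that came from a histiocytic lymphoma. The libraries were chosen by their group labels: 2 of B412_GSK126 and 3 of MT_mock, 5 of the 7 in all. MT_mock is the parental line U937 MT with 0.1 mM ZnSO4. B412_GSK126 is the derivative U937 B412, in which zinc turns on the fusion, pretreated with 0.1 mM ZnSO4 for 24 h and then given 2.5 µM GSK126 together with 0.1 mM ZnSO4 for 96 h. The remaining 2 libraries, B412_mock, are the derivative with 0.1 mM ZnSO4 and no inhibitor, and serve here as the reference for what was different without the inhibitor. All 7 libraries thus had zinc. A zinc pretreatment and its time are given for the B412_GSK126 libraries only, and no time in zinc for MT_mock or B412_mock. The line, the fusion and the inhibitor all differ between the groups compared, and the time in zinc may differ too. Their parts in a difference cannot be told apart from these 5 libraries alone. The labels name no second clone of B412 and leave unsaid whether the replicates are separate cultures. The p-values therefore measure only how far these libraries spread, and that spread may be technical.

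PLZF/RARA joins the transcriptional repressor PLZF, encoded by ZBTB16, to the retinoic acid receptor alpha, and drives a rare acute promyelocytic leukaemia in which retinoic acid works poorly. EZH2 is the catalytic subunit of the Polycomb repressive complex PRC2, which methylates histone H3 at lysine K27 on genes that stay silent. GSK126 blocks the methyltransferase activity of EZH2 without removing the protein. Genes under PRC2 often have CG-rich starts, and such a gene can regain RNA as the mark is lost.

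The 5 libraries held 13476329 to 14848130 counts. The main axis of variation over all 7 libraries cut across the groups. The first principal component of log2 CPM (counts scaled to the library total) took up 65.7% of the variance and parted MT_mock replicates 1 and 2, B412_mock 1 and B412_GSK126 1 (set 1) from MT_mock 3, B412_mock 2 and B412_GSK126 2 (set 2). No label names a batch. The fit carried an additive term for the set, which lowered the common biological coefficient of variation from 58.3% to 21.9%. Because the sets were read from these same counts, p-values may be too small, and without the term edgeR called 0 genes in this comparison, with 268 at an unadjusted p under 0.05. Adjusted p-values are from edgeR's quasi-likelihood F test with Benjamini-Hochberg adjustment over 13521 genes, called at 0.05, and log2 changes are given ± SE. The myeloid identity of the cells was checked with 15 markers, of which none was at 0 in all 5 libraries and CSF2RA stayed under 1 CPM. Their summed level was 2604 to 8673 CPM in MT_mock and 1811 to 5693 CPM in B412_GSK126. Of these sums, MPO alone made up 1420 to 6023 CPM and 1003 to 4195 CPM. Of the 14 myeloid markers tested, 3 (21.4%, against 1.07% of all tested genes) were called lower with GSK126: ITGB2, CD68 and MPO. Of 9 T, B and NK cell markers, CD3G and MS4A1 were at 0, CD3D and CD3E stayed under 1 CPM, and the sum was 97.4 to 127 CPM in MT_mock and 208 to 213 CPM in B412_GSK126, of which NCAM1 made up 32.5 to 42.8 CPM and 92 to 144 CPM. Erythroid and megakaryocytic markers summed to at most 8.76 CPM and fibroblast and epithelial markers to at most 4.01 CPM. Their part in the results was not tested. In these bulk samples, fewer cells of a kind and less RNA per cell cannot be told apart.

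With GSK126, 257 genes differed from the parental cells, 1.9% of those tested: 113 were higher (0.836%) and 144 lower (1.07%). The higher genes with the lowest p included UROC1, which encodes the histidine-degrading enzyme urocanate hydratase, the glypican gene GPC4, the deacetylase gene HDAC9 and NCAM1, which encodes the adhesion molecule CD56. The lower ones included CD93, a surface glycoprotein of myeloid cells, the fatty acid transporter and acyl-CoA synthetase gene SLC27A2, the cytokine receptor subunit gene IL20RB and the macrophage lysosomal glycoprotein gene CD68. The median log2 change was 1.36 over the higher and -1.34 over the lower genes, beside 0.00 over all genes tested. Of the 257, 34 were more than 4-fold higher and 42 more than 4-fold lower, while 74 changed by less than 2-fold. The CPM of the groups did not overlap for 169 of the 257. Over all genes tested this held for 12.1%, 7.08% higher and 4.98% lower. Left-out libraries moved the count between 72 (without B412_GSK126 replicate 2) and 693 (without MT_mock replicate 1), and 36 genes, 17 higher and 19 lower, were called whichever of the 7 libraries was left out.

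Of 318 genes that differed between B412_mock and MT_mock (2.35% of those tested), 175 differed in the same direction with GSK126. They make up 55.03% of the line differences and 68.1% of the 257 genes called with GSK126. Both comparisons use the same 3 MT_mock libraries, so part of this overlap is built in. Genes higher in B412_mock (0.851% of those tested) were called again in 75 of 115 cases (65.2%), and genes lower there (1.5%) in 100 of 203 (49.3%). The sizes were alike where both were called: the median absolute log2 change over the 175 was 1.66 in B412_mock and 1.65 in B412_GSK126, against 0.27 and 0.28 over all genes tested. These genes were chosen for passing in both comparisons, so alike sizes are in part built in. The other 143 line differences, 40 higher and 103 lower, missed the threshold with GSK126, and all 143 had the same sign there, 122 of them at an unadjusted p under 0.05. Their median absolute log2 change was 1.27 in B412_mock and 0.77 in B412_GSK126, a gap that choosing genes called in B412_mock only would itself favour. Missing the threshold does not show that they returned to the parental level. Set directly against B412_mock, the GSK126 libraries differed in 0 genes (0% of those tested) by edgeR, in 464 at an unadjusted p under 0.05, in 4 by DESeq2 and in 1 by limma-voom. The 36 genes called whichever library was left out were all line differences as well.

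Genes that had lost all reads in B412 cells were among those that persisted. Of 14 genes with at least 100 counts summed over MT_mock and 0 in both B412_mock libraries, 6 were also at 0 in both B412_GSK126 libraries, 2 had 1 to 3 counts there and 6 had more than 3, the highest being 26 counts. The 6 at 0 in every B412 library were SLC27A2, PIR, PIR-FIGF, CD276, GTF2IRD1 and TTC12. CD276 encodes the immune checkpoint ligand B7-H3, PIR the iron-binding nuclear protein pirin, GTF2IRD1 a transcription factor of the Williams syndrome region and TTC12 a factor for dynein arm assembly. PIR and the readthrough symbol PIR-FIGF share sequence and count as 1 locus. TMEM54 was at 0 with GSK126 and had 1 count in B412_mock. The promoters of SLC27A2, PIR, PTPRF, GPC4 and UROC1 are printed as examples that stand for no group, and as the places where RNA production of these genes would start, with each CG dinucleotide in capitals, since CG-rich starts are where PRC2 tends to gather. They come from RefSeq on GRCh38.p14 and run 5′ to 3′ from 250 bases before to 50 bases after the annotated start, at chr15:50181946-50182245 (plus strand), chrX:15493284-15493583 (minus strand), chr1:43530633-43530932 (plus strand), chrX:133415440-133415739 (minus strand) and chr3:126517724-126518023 (minus strand).
SLC27A2: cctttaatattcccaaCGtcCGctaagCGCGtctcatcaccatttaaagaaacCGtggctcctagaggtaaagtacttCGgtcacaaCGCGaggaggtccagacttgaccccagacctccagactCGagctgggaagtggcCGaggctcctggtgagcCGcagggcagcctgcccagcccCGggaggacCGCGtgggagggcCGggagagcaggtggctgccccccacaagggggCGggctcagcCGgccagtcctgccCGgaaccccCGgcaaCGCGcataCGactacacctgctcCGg
PIR: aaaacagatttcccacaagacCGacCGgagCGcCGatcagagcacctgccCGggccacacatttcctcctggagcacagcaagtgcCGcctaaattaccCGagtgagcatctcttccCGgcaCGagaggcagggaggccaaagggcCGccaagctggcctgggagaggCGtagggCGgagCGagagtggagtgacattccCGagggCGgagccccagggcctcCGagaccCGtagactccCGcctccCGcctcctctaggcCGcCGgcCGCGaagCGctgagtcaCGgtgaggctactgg
PTPRF: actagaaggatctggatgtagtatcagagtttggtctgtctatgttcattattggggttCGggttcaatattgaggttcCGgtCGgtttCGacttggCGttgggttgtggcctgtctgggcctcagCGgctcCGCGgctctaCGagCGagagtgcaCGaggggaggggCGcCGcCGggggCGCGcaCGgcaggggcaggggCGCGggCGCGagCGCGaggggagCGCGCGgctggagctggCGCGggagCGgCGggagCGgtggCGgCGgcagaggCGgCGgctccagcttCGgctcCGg
GPC4: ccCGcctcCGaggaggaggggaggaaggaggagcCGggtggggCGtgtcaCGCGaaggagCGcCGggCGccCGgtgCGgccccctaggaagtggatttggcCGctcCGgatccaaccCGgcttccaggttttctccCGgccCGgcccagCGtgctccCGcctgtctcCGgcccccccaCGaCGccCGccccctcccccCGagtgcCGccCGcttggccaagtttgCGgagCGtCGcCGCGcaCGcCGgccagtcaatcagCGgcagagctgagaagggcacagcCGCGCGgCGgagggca
UROC1: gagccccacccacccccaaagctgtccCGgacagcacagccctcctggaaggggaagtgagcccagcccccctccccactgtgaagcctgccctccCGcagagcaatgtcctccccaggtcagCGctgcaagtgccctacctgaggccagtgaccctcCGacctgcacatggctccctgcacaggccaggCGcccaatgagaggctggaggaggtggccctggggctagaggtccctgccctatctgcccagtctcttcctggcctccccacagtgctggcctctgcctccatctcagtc

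The median over the 10388 tested genes matched to a RefSeq promoter was 26 CG dinucleotides in the 300 bases. SLC27A2 and PIR lie just under it with 23 and 25, PTPRF and GPC4 above it with 37 each, and UROC1 far below it with 5. The retinoid receptor half-site AGGTCA, searched on both strands, lies in the UROC1 window and in 9.95% of all matched promoters. It is absent from the other 4 windows. Since a promoter was matched for 76.8% of the tested genes only (87 of the 113 higher and 113 of the 144 lower), a check of CG content over the called genes as a group is void, and no group value is given.

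SLC27A2 had 22, 12.3 and 44.8 CPM in the MT_mock libraries and 0 counts in each of the 4 B412 libraries. Against a floor of 3 counts per library it was at least 119-fold lower with GSK126 (adjusted p = 0.000348). PIR had 9.02, 12.3 and 8.92 CPM in MT_mock and likewise 0 counts in all B412 libraries. It was at least 45.5-fold lower with GSK126 (adjusted p = 0.0011). The parental and B412 libraries thus did not overlap for either gene, and 96 h of the inhibitor left both without a read. TMEM54 went from 11, 17.7 and 9.73 CPM in MT_mock to 0 counts in both GSK126 libraries, at least 57.8-fold lower (adjusted p = 0.000534).

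A neighbouring set of genes was at or near 0 in B412_mock and had a few reads with GSK126, far under the parental level. PTPRF, which encodes the receptor tyrosine phosphatase LAR, had 28.8, 15.7 and 33.2 CPM in MT_mock, 0 counts in both B412_mock libraries and 0.88 and 0.594 CPM in the GSK126 libraries. Both GSK126 libraries held reads, 20 counts in all, and the gene was still 36.2-fold below the parental cells (log2 -5.18 ± 0.48, adjusted p = 0.000534). GALNT14, which starts mucin-type O-glycan chains, had 31, 24.5 and 27.7 CPM in MT_mock, 0 and 0.223 CPM in B412_mock and 0.953 and 4.3 CPM with GSK126. It was 13.7-fold below the parental cells (log2 -3.77 ± 0.50, adjusted p = 0.00378) and missed the threshold against B412_mock (adjusted p = 0.937). ACTL8, an actin-like cancer-testis gene, had 44.2, 36.3 and 23.7 CPM in MT_mock, 0 and 0.148 CPM in B412_mock and 0.367 and 1.34 CPM with GSK126, and stayed 40.8-fold below the parental cells (adjusted p = 0.000677). For all 3 genes each GSK126 library read above both B412_mock libraries and below all MT_mock libraries. They were grouped here for this pattern, so the order follows in part from the choice. None of the 3 was called between GSK126 and mock by edgeR.

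**Figure D1:**
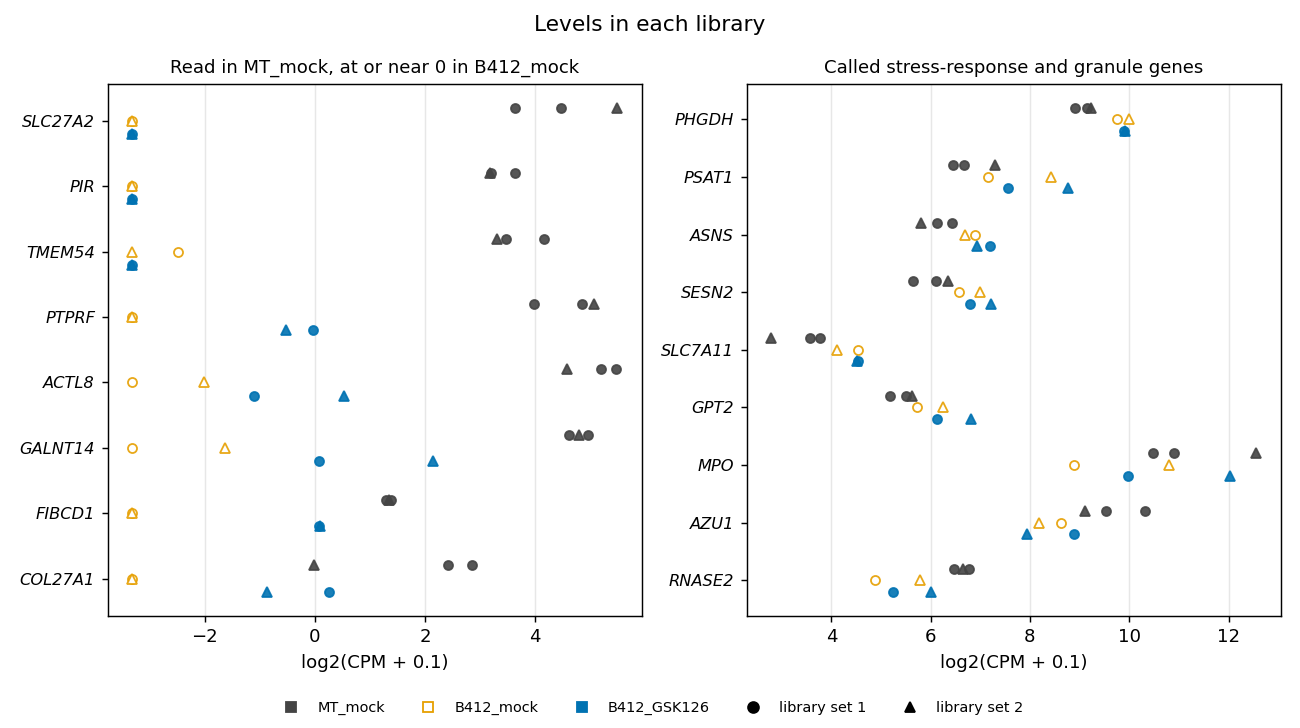
Level of each gene in each library on a log2(CPM + 0.1) scale, with MT_mock in grey, B412_mock in open orange and B412_GSK126 in blue, circles for library set 1 and triangles for set 2. On the left, SLC27A2 and PIR sit at the lowest drawable value in all 4 B412 libraries, while PTPRF, ACTL8, GALNT14 and FIBCD1 have blue points between the open and the grey ones, and for COL27A1 the lowest grey point lies among the blue ones. On the right are the 6 called serine synthesis and stress response genes and the 3 called granule genes.

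Of the line differences that were no longer called with GSK126, the 8 with the largest difference between B412_GSK126 and B412_mock were FAM227A, FIBCD1, COL27A1, ARHGAP24, IPO5P1, CLGN, FBP1 and ROBO3. All 8 were lower in B412_mock than in MT_mock. Since they were ranked by the difference between B412_GSK126 and B412_mock, a large difference there is built in. FIBCD1, a chitin-binding receptor, had 2.49, 2.36 and 2.43 CPM in MT_mock, 0 counts in B412_mock and 0.953 and 0.965 CPM with GSK126. Its GSK126 libraries lay between the other groups without overlap, and its log2 difference from the parental cells was -1.37 ± 0.77 (adjusted p = 0.436). COL27A1, a fibrillar collagen gene, had 5.25, 7.14 and 0.884 CPM in MT_mock, 0 counts in B412_mock and 1.1 and 0.445 CPM with GSK126. Here the parental range was wide and reached into the GSK126 values (log2 -1.97 ± 0.73, adjusted p = 0.225). FAM227A, with 2.56, 4.23 and 0.221 CPM in MT_mock, 0 counts in B412_mock and 1.69 and 0.223 CPM with GSK126, also overlapped the parental range (log2 -0.76 ± 0.89, adjusted p = 0.747). FBP1, which encodes the gluconeogenic enzyme fructose-1,6-bisphosphatase, stayed at 0.147 and 0.445 CPM with GSK126 against 2.09, 3.4 and 4.27 CPM in MT_mock (log2 -3.73 ± 0.88, adjusted p = 0.0568). FBP1 passed by DESeq2, with no filter on low counts and without MT_mock replicate 1 (adjusted p = 0.0326). The log2 changes from the parental cells for 3 others were -1.84 for the Rac-inhibiting ARHGAP24, -3.47 for the pseudogene IPO5P1 and -2.32 for the axon guidance receptor gene ROBO3. ROBO3 passed by DESeq2, with no filter on low counts and with a replicate block beside the library-set term (adjusted p = 0.033, 0.004 and 0.0245). The chaperone gene CLGN had a log2 change of -1.30 over both sets, -3.07 in set 1 and 0.32 in set 2, so its direction turned between them. Without B412_GSK126 replicate 1 it was 0.43, and CLGN passed in library set 1 alone and with the replicate block beside the set term (adjusted p = 0.0159 and 0.0128). Reads of IPO5P1 may come in part from its parent gene. None of the 8 passed against B412_mock (adjusted p = 1 for each), so the return of reads is a description of 2 libraries on each side.

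Of 115 genes higher in B412_mock, 75 were called again with GSK126 and 40 were not. The genes described next were chosen for a low p with GSK126, so their call there follows from the choice. UROC1 had 0.269, 0.624 and 0.295 CPM in MT_mock, 23.6 and 13 CPM in B412_mock and 26.8 and 20.8 CPM with GSK126. It was 63-fold higher with GSK126 than in the parental cells (log2 5.98 ± 0.38, adjusted p = 4.16e-05). This was the lowest p of all genes tested. GPC4, a cell-surface heparan sulfate proteoglycan gene, had 0 counts in all 3 MT_mock libraries, 4.48 and 15.1 CPM in B412_mock and 4.69 and 15.3 CPM with GSK126. It was at least 47.5-fold higher with GSK126 (adjusted p = 0.000534), and in both B412 groups the set 2 library read higher than the set 1 library. HDAC9, a class IIa histone deacetylase gene, had 1 count summed over MT_mock, 7.46 and 8.46 CPM in B412_mock and 5.5 and 7.12 CPM with GSK126. The ratio of summed counts per library total was 270.2 with GSK126 (exact 95% counting interval 47.8 to 10732, adjusted p = 0.000534). AUTS2, whose protein joins a variant PRC1 complex, also had 1 count in MT_mock and 8.06 and 8.31 CPM with GSK126, beside 7.93 and 9.35 CPM in B412_mock (ratio 351, interval 62.3 to 13915, adjusted p = 0.000348). The upper bounds show how little a single parental count can say about the size.

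NCAM1 differed from these in being read in every library. It had 32.5, 35.3 and 42.8 CPM in MT_mock, 66.7 and 105 CPM in B412_mock and 92 and 144 CPM with GSK126, where it was 2.89-fold higher than in the parental cells (log2 1.53 ± 0.16, adjusted p = 0.000677). Within each library set the GSK126 library was the highest and the parental library or libraries the lowest. The other higher genes of the 10 with the lowest p were the carboxypeptidase gene CPZ (log2 4.97), the slow skeletal troponin gene TNNT1 (2.04), the calcium channel subunit gene CACNA2D2 (4.73), the phosphatase and actin regulator gene PHACTR3 (3.01) and the translation termination factor gene GSPT2, which had 1 count in MT_mock and 6.89 and 4.9 CPM with GSK126. GSPT2 is a close copy of GSPT1, so its reads are uncertain. CX3CR1, the fractalkine receptor gene, had 3 counts summed over MT_mock, 1.18 and 11 CPM in B412_mock and 1.98 and 8.53 CPM with GSK126. Against MT_mock it was higher with GSK126 (ratio 74.8, interval 25.1 to 367, adjusted p = 0.00378) and was called higher in B412_mock too (log2 5.70). In all, 16 genes were at 0 in MT_mock and had at least 20 counts in a B412 group.

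Among genes that were lower without being lost, CD93 had 182, 151 and 359.6 CPM in MT_mock, 37.7 and 104 CPM in B412_mock and 33.8 and 106 CPM with GSK126. The B412 values stayed below the parental values within each set, and the gene was 4.29-fold lower with GSK126 (log2 -2.10 ± 0.18, adjusted p = 0.000348). IL20RB, the beta subunit of the IL-20 receptor, had 40.7, 52.2 and 55.9 CPM in MT_mock, 4.16 and 1.86 CPM in B412_mock and 3.01 and 2.89 CPM with GSK126, 17-fold lower than in the parental cells (adjusted p = 0.000348). STXBP2, which encodes the granule exocytosis protein Munc18-2, had 48, 79 and 31 CPM in MT_mock, 14.6 and 10.6 CPM in B412_mock and 6.52 and 4.6 CPM with GSK126. It was lowest in the GSK126 libraries, with log2 changes of -3.11 with GSK126 and -1.91 in B412_mock against the same parental libraries. CD68 followed the same order, with 34.3, 35.8 and 63.4 CPM in MT_mock, 10.7 and 21.2 CPM in B412_mock and 7.84 and 8.68 CPM with GSK126, and log2 changes of -2.51 and -1.63 (adjusted p = 0.000677 and 0.00662). Neither gene passed between GSK126 and mock (adjusted p = 1 for both). FCHSD2, a membrane-bending adaptor of endocytosis, was 3.43-fold lower than in the parental cells (adjusted p = 0.000677). These 20 genes, the 10 higher and 10 lower with the lowest p among those whose groups did not overlap, were called whichever library was left out.

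**Figure D2:**
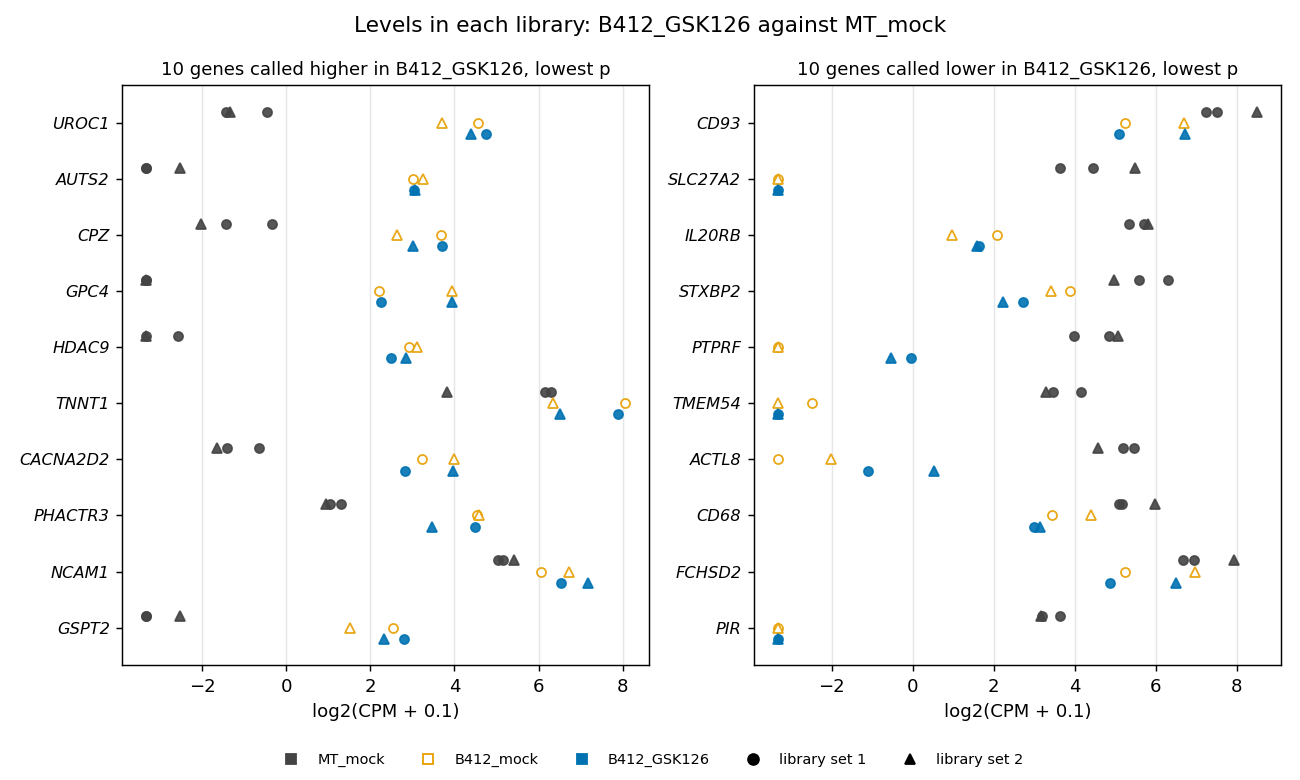
Level of the 10 higher (left) and 10 lower (right) genes with the lowest p and no overlap between B412_GSK126 and MT_mock, on a log2(CPM + 0.1) scale, with 1 point per library and symbols as for the genes at or near 0. For UROC1, GPC4, SLC27A2 and PIR the blue and open points lie together and apart from the grey ones, while PTPRF and ACTL8 show blue points above the open ones.

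Genes called with GSK126 and not in B412_mock numbered 82, 38 higher and 44 lower. All 82 had the same sign in B412_mock, 70 of them at an unadjusted p under 0.05, and their median absolute log2 change was 1.04 with GSK126 and 0.70 in B412_mock. Choosing genes called with GSK126 only would itself favour such a gap. None passed between GSK126 and mock (lowest adjusted p = 1). CTSW, a cathepsin gene best known from cytotoxic lymphocytes, had 10.6, 15 and 13 CPM in MT_mock, 26.2 and 19.3 CPM in B412_mock and 46 and 27.9 CPM with GSK126. All GSK126 values lay above all parental ones (log2 1.51 ± 0.26, adjusted p = 0.0147). HSH2D, an adaptor gene of haematopoietic cells, had 332, 351 and 110.4 CPM in MT_mock, 262 and 85.3 CPM in B412_mock and 169 and 65.2 CPM with GSK126. The groups overlapped across sets and not within them (log2 -0.93 ± 0.15, adjusted p = 0.00957). The other higher genes with the lowest p were the spliceosome gene SNRPA1 (log2 1.14), the calmodulin-binding neurogranin gene NRGN (1.28), the endocytic ATPase gene EHD4 (1.49), the alpha-tubulin gene TUBA1B (0.64) and the alanine aminotransferase gene GPT2 (0.93). TUBA1B has near-identical paralogues, so its reads are uncertain. The other lower ones were the lysosomal sulfatase gene IDS (-1.08), the integrin-signalling adaptor gene FYB (-0.88), the secretory GTPase gene RAB27A (-1.10), the atypical I-kappa-B gene BCL3 (-3.04) and the fatty acid receptor gene PPARA (-1.16). Each of these 12 lost its call when 2 or more of the 7 libraries were left out in turn, with B412_GSK126 replicate 1 or 2 among them in every case and MT_mock replicate 2 in all but NRGN. The highest adjusted p was 0.162 for CTSW, 0.0736 for HSH2D and 0.252 for EHD4.

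The genes of the fusion and of PRC2 did not pass. ZBTB16, whose reads can come from the PLZF part of the fusion or from the gene itself, had 0.269, 0 and 0 CPM in MT_mock, 1.73 and 2.08 CPM in B412_mock and 0.513 and 2.67 CPM with GSK126. Both GSK126 libraries read above the parental ones, at low counts (log2 3.63 ± 1.32, adjusted p = 0.214). Without MT_mock replicate 1, the parental library that held all of its parental reads, it passed (adjusted p = 0.0406). RARA had 19.1, 18.1 and 35 CPM in MT_mock and 22.9 and 50.5 CPM with GSK126, with overlapping groups (log2 0.35 ± 0.20, adjusted p = 0.438). EZH2 had 79.9, 91.2 and 25.9 CPM in MT_mock, 72.2 and 31.8 CPM in B412_mock and 86 and 48 CPM with GSK126. It read low in every set 2 library and high in every set 1 library (log2 0.34 ± 0.21, adjusted p = 0.472). RNA of EZH2 is no readout of the inhibitor, which acts on the enzyme. Of 12 tested PRC2 subunit genes 0 were called by edgeR, DESeq2 or limma-voom and 2 had an unadjusted p under 0.05, with a median log2 change of 0.07, EED at 0.57 ± 0.24 (adjusted p = 0.28), SUZ12 at 0.03 ± 0.16 and the catalytic paralogue EZH1 at -0.06 ± 0.24. Of 18 tested H3K27 demethylase and PRC1 genes 0 were called by any of the 3 tools, and 1 had an unadjusted p under 0.05.

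Among classic targets of Polycomb silencing, 3 genes were called, all higher, and all 3 were called higher in B412_mock too. Between GSK126 and mock their log2 changes were -0.45 for IRX3, 0.24 for HOXB3 and 0.29 for HOXC4, with none called. Of 60 developmental regulator genes 13 had enough reads to be tested, and 1 (7.69%, against 0.836% of all tested genes) was called: IRX3, a homeobox gene, had 325, 336 and 196 CPM in MT_mock, 725 and 462 CPM in B412_mock and 614 and 299 CPM with GSK126. It was higher than in the parental cells within each set, with log2 changes of 0.73 with GSK126 (adjusted p = 0.0243) and 1.18 in B412_mock. The median log2 change of the 13 was 0.42 with GSK126 and -0.32 in B412_mock against the same parental libraries, while set directly against B412_mock it was 0.13, with 8 of 13 positive and 0 called. Of 39 HOX genes 18 were tested and 2 (11.1%) were called higher. The 18 split evenly, 9 with positive and 9 with negative log2 changes, both with GSK126 and in B412_mock (median 0.03 in each). HOXB3 had 3.3, 3.33 and 3.68 CPM in MT_mock, 11.6 and 10.9 CPM in B412_mock and 14.4 and 12.4 CPM with GSK126 (log2 1.93 ± 0.30, adjusted p = 0.00927). HOXC4 had 8.76, 5.13 and 5.9 CPM in MT_mock, 22.8 and 12.3 CPM in B412_mock and 26.1 and 16.8 CPM with GSK126 (log2 1.73 ± 0.30, adjusted p = 0.0147). Neither group overlapped the parental one. HOX transcripts of 1 cluster overlap, so reads of HOXC4 and its neighbours HOXC5 and HOXC6 (log2 1.48 and 0.56, not called) may not be separable. Of 13 tested CDK inhibitor and other tumour-related Polycomb target genes 0 were called by edgeR, 3 had an unadjusted p under 0.05 and 1 was called by DESeq2, with a median of 0.06. IRX3 and HOXC4 were not called without MT_mock replicate 2 or B412_GSK126 replicate 1, IRX3 not without either B412_mock library, and neither HOX gene without either GSK126 library, with adjusted p up to 0.195 for IRX3, 0.114 for HOXB3 and 0.111 for HOXC4.

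Granule protein genes were lower where they passed. Of 14 tested granule protein genes, 12 had negative log2 changes (median -0.93), and 3 (21.4%, against 1.07% of all tested genes) were lower with GSK126: MPO, AZU1 and RNASE2. In B412_mock 5 of the 14 were lower, with a median of -1.29. MPO, the myeloperoxidase gene, had 1923, 1420.0 and 6023 CPM in MT_mock, 472 and 1772 CPM in B412_mock and 1003 and 4195 CPM with GSK126. Within each set the GSK126 library lay between the B412_mock and parental levels, and the log2 change from the parental cells was -0.67 ± 0.14 with GSK126 (adjusted p = 0.0304) and -1.82 ± 0.14 in B412_mock. MPO had the lowest p of all genes between GSK126 and mock (log2 1.15 ± 0.15, adjusted p = 0.0754), short of the threshold. AZU1, the azurocidin gene, had 1269, 744 and 549 CPM in MT_mock, 392 and 290.4 CPM in B412_mock and 476 and 247 CPM with GSK126. Its log2 change was -1.16 with GSK126 and -1.17 in B412_mock, so both B412 groups had about the same distance from the parental cells. RNASE2, an eosinophil granule ribonuclease gene, had a log2 change of -1.14 with GSK126 (adjusted p = 0.027). None of the 3 was called without B412_GSK126 replicate 1 or replicate 2, MPO and AZU1 not without MT_mock replicate 3, RNASE2 not without MT_mock replicate 2, and MPO and RNASE2 not without either B412_mock library, with adjusted p up to 0.144 for MPO, 0.242 for AZU1 and 0.144 for RNASE2. ELANE and PRTN3, which encode serine proteases of granules, had log2 changes of -1.93 and -1.91 and did not pass (adjusted p = 0.371 and 0.45). Surface genes of monocytes and macrophages went both ways: of 11 tested, CX3CR1 was higher (9.09%, against 0.836% of all tested genes) and CD68 lower (9.09%, against 1.07%), both with values given above, and 8 had negative log2 changes (median -0.36, beside 0.05 in B412_mock).

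Of 12 tested retinoic acid response genes of myeloid cells, 3 (25%, against 1.07% of all tested genes) were lower. Log2 changes were negative for 9 of the 12 and positive for 3, with a median of -0.45. In B412_mock 1 of the 12 was called higher and 2 lower. CD38, an ectoenzyme gene induced by retinoic acid in myeloid cells, had 3.91, 4.02 and 19.6 CPM in MT_mock, 0.393 and 4.01 CPM in B412_mock and 0.22 and 2.67 CPM with GSK126, lower within each set (log2 -3.43 ± 0.50, adjusted p = 0.00577). ICAM1, an adhesion ligand, had 30, 40.1 and 133 CPM in MT_mock, 8.79 and 26.2 CPM in B412_mock and 17.6 and 26.4 CPM with GSK126 (log2 -1.60 ± 0.30, adjusted p = 0.0253). CEBPE, a transcription factor gene of late granulocyte development, had 28.9, 17.1 and 10.3 CPM in MT_mock and 7.7 and 3.71 CPM with GSK126 (log2 -1.58 ± 0.32, adjusted p = 0.0304), and was also the 1 gene called of 13 myeloid lineage transcription factors (7.69%). No retinoic acid was given in any library according to the labels. ITGB2, the common beta chain of the leukocyte integrins, had 488, 495 and 1204 CPM in MT_mock, 123 and 125 CPM in B412_mock and 159 and 399 CPM with GSK126 (log2 -1.59 ± 0.28, adjusted p = 0.0304). Of 18 integrin and adhesion genes, 13 had negative log2 changes (median -0.50). NCAM1 was higher (5.56%, against 0.836% of all tested genes) and ITGB2 and ICAM1 were lower (11.1%, against 1.07%). CD79A, a B-cell receptor component gene, was also lower (42.6, 20.6 and 15.3 CPM in MT_mock and 5.5 and 6.75 CPM with GSK126, adjusted p = 0.0304). CD38 lost its call without B412_GSK126 replicate 2 (adjusted p = 0.0517). The other calls of this paragraph except NCAM1 were lost without either GSK126 library or MT_mock replicate 2, apart from ICAM1, which was called without B412_GSK126 replicate 1. ICAM1, CEBPE and ITGB2 were also lost without MT_mock replicate 3, ICAM1, CEBPE and CD79A without B412_mock replicate 1, and CEBPE and CD79A without B412_mock replicate 2. Their highest adjusted p was 0.182 for ICAM1, 0.204 for CEBPE, 0.381 for ITGB2 and 0.199 for CD79A.

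NF-kappa-B genes gave 2 lower calls of 19 subunits and regulators (10.5%, against 1.07% of all tested genes), with a median of -0.57 and 14 negative values. RELB, a subunit of the non-canonical pathway, had 31.5, 71.3 and 105 CPM in MT_mock, 10.9 and 18 CPM in B412_mock and 13.6 and 18.8 CPM with GSK126, all B412 values lying below all parental values (log2 -2.20 ± 0.34, adjusted p = 0.00903). BCL3, which binds the p50 and p52 subunits in the nucleus, had 3.5, 13 and 18.3 CPM in MT_mock, 2.36 and 4.31 CPM in B412_mock and 1.1 and 2.08 CPM with GSK126 (log2 -3.04 ± 0.57, adjusted p = 0.0244). The inflammatory target genes had a median of -1.08 over 11 tested. ICAM1, already counted in the lists above, was the 1 that passed (9.09%), beside 5 by DESeq2. The parental libraries themselves differed in this pathway: CXCL10, a chemokine gene, had 1.41, 57.8 and 88.4 CPM in MT_mock and 0.953 and 0.742 CPM with GSK126, and did not pass (log2 -5.93 ± 2.03, adjusted p = 0.304). RELB and BCL3 were both lost without either GSK126 library or MT_mock replicate 3, with adjusted p up to 0.194 and 0.204, and BCL3 also without MT_mock replicate 2 and by limma-voom. Interferon-stimulated genes (24 tested), MHC class I presentation genes (16) and MHC class II genes (7) gave 0 calls by edgeR, with medians of -0.10, -0.21 and 0.00. At an unadjusted p under 0.05 they gave 2, 1 and 0, and DESeq2 called 1 interferon-stimulated gene, OASL.

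Serine synthesis and amino acid stress genes were the list with the most calls. Of 25 tested, 6 (24%, against 0.836% of all tested genes) were higher, 0 lower, 22 had a positive log2 change and the median was 0.48. In B412_mock 3 of the 25 were higher, with a median of 0.31, against the same parental libraries. PHGDH, which commits glycolytic carbon to serine, had 566, 479 and 601 CPM in MT_mock, 864 and 1014 CPM in B412_mock and 949 and 967 CPM with GSK126 (log2 0.75 ± 0.13, adjusted p = 0.0141). PSAT1, the aminotransferase of the next step, had 101, 87.2 and 157 CPM in MT_mock, 142 and 345 CPM in B412_mock and 188 and 436 CPM with GSK126 (log2 1.15 ± 0.16, adjusted p = 0.00462). ASNS, asparagine synthetase, had 70.1, 85.8 and 55.9 CPM in MT_mock, 119 and 104 CPM in B412_mock and 146 and 122 CPM with GSK126 (log2 0.96 ± 0.16, adjusted p = 0.0138). In all 3 genes every B412 library read above the parental library or libraries of its set. The other 3 were the stress sensor gene SESN2 (log2 0.86, adjusted p = 0.0335), the cystine transporter gene SLC7A11 (1.20, 0.0427) and GPT2 (0.93, 0.0253), none of them called in B412_mock. PSPH, the last enzyme of serine synthesis, had a log2 change of 0.60 and the transcription factor gene ATF4 one of 0.48, and neither passed (adjusted p = 0.146 and 0.15). PSAT1 was called whichever library was left out. The 6 calls fell to 1 without B412_GSK126 replicate 1 and to 2 without B412_GSK126 replicate 2 or MT_mock replicate 2, and to 3 without MT_mock replicate 3 or either B412_mock library.

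Apart from the myeloid markers, the lists that remain held 0 to 2 calls each, where 0.836% of all tested genes were called higher and 1.07% lower. Of 19 histone deacetylase genes HDAC9 was the 1 called (5.26%). Of 13 heparan sulfate proteoglycan genes GPC4 and the agrin gene AGRN were higher (15.4%). AGRN had 116, 101 and 212 CPM in MT_mock, 112 and 221 CPM in B412_mock and 174 and 347 CPM with GSK126 (log2 0.66 ± 0.14, adjusted p = 0.0382), with a log2 change in B412_mock of 0.03. It was called in 1 of the 7 fits that left out a library, that without MT_mock replicate 1, with adjusted p up to 0.19 in the others. SLC27A2 was the 1 call of 22 fatty acid activation and triglyceride synthesis genes (4.55%), and GALNT14 the 1 call of 14 O-glycosylation genes (7.14%). DGAT2, the last enzyme of triglyceride synthesis, was called lower in B412_mock (log2 -1.35, adjusted p = 0.0127) and had a log2 change of -0.17 with GSK126 (adjusted p = 0.776). Cholesterol synthesis genes (22 tested, median 0.38) and cell cycle genes (25 tested, median 0.24) gave 0 calls by edgeR, 4 and 5 at an unadjusted p under 0.05, and 0 and 1 by DESeq2. All 11 tested zinc response genes, metallothioneins for the most part, had negative log2 changes, with a median of -0.31, beside -0.85 in B412_mock, and 0 calls by any of the 3 tools or at an unadjusted p under 0.05.

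Chromosome 15 held more of the calls than any other chromosome, a pattern that was looked at after the values were seen. Of 456 tested genes on it, 29 were higher and 10 lower (8.55% called), against 0.576% to 3.56% on the other chromosomes. It carried 26.9% of the 108 higher genes that have a chromosome in RefSeq and 3.45% of all such tested genes. The calls lay in stretches. Tested genes were ordered along each chromosome and cut into 428 blocks of 30, without regard to their values. Of 6 blocks with a median log2 change over 0.4, all were on chromosome 15, and the highest median elsewhere was 0.37, on chromosome 22. Of 4 blocks with a median under -0.4, 1 was on chromosome 15 and the others on chromosomes 4, 6 and 20, where the lowest was -0.44. Along the chromosome the first 4 blocks, from LOC646214 to PPIP5K1, had medians of 0.52, 0.57, 0.61 and 0.51, and the block from CATSPER2 to EID1 one of 0.38. The next block, from SECISBP2L to PIGBOS1, had a median of -0.67, with 28 of its 30 genes lower and 5 called lower. The 7 blocks after it, up to MRPS11, lay between -0.17 and 0.08. The last 2, DET1 to FES and MAN2A2 to CHSY1, rose to 0.69 and 0.63.

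Of the 39 called genes of chromosome 15, 25 were also called in B412_mock. SLC27A2, COPS2, a COP9 signalosome gene (log2 -1.12), USP8, a deubiquitinase gene (-0.78), and SECISBP2L (-1.46) are in the block with the negative median, and RAB27A (-1.10) near its end. IDH2, the mitochondrial isocitrate dehydrogenase gene (log2 0.90, adjusted p = 0.00762), the Fanconi anaemia gene FANCI (0.94, 0.0141), the helicase gene BLM (1.04, 0.0468) and the nuclear receptor gene NR2F2 (2.55, 0.0161) are in the last 2 blocks, with SNRPA1 just beyond. EHD4 and SPRED1, an inhibitor of the RAS pathway (log2 3.22), are in the first 4. Of these 12, COPS2, USP8, RAB27A, SNRPA1 and EHD4 were not called in B412_mock. Several called neighbours share sequence and are not separate evidence, such as PLA2G4B with JMJD7-PLA2G4B, HYPK with SERF2-C15ORF63 and MIR1282, and CCPG1 with DYX1C1-CCPG1. The block medians had the same sign in both library sets where they passed 0.4 in size, -0.53 and -0.77 for the block from SECISBP2L to PIGBOS1. Between GSK126 and mock the chromosome 15 blocks lay between -0.15 and 0.14. Between MT_mock replicates 1 and 2 they lay between -0.24 and 0.20, and those of all chromosomes between -0.43 and 0.36. Without chromosome 15, 79 genes were higher (0.619% of those with another chromosome) and 134 lower. DNA was not analysed here, and the part of gene copy number in these differences was not tested.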

How the data were processed

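RNA was measured in 7 libraries of 3 groups (MT_mock 3, B412_mock 2, B412_GSK126 2), grouped by the sample titles. Per the labels' protocols, column-purified total RNA went through SMART-Seq v3 amplification, ultrasonic shearing of the cDNA and a NEBNext Ultra DNA library kit. The protocols name no strand mark and no molecular identifiers, so intervals and floors cover counting error only. The files deposited by the authors hold raw whole-number counts for 26364 gene symbols. FastQC, Subread, featureCounts and hg19 are named per the submitters' processing notes. Versions and gene annotation: not given in the sources used here.

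From these counts, filterByExpr (minimum count 10, minimum total 15) kept 13521 genes and left 12843 untested. TMM-scaled counts of all 7 libraries were fitted with edgeR 4.0.16 in R 4.3.3 (robust quasi-likelihood, two-sided), with group means and an additive library-set term, on 3 residual degrees of freedom. CPM values are counts scaled to the library total, and a floor of 3 counts stands for 0.202 to 0.236 CPM. Alternatives used DESeq2 1.42.0, limma 3.58.1, RLE scaling, no filter, no set term, a replicate block and left-out libraries. The script was checked on simulated data. The members and the 28 gene lists were chosen with earlier results of these data known. Genes were named by a rule: the fusion and PRC2 genes, the 10 higher and 10 lower genes with the lowest p and no overlap, the 6 higher and 6 lower called with GSK126 and not in B412_mock, the 8 line differences no longer called with the largest GSK126 difference, the called list members and the 6 genes with the lowest p between GSK126 and mock. Of the genes outside it, those at 0 in a group and those on chromosome 15 were chosen after their values were seen. Symbols, order along chromosomes and promoters came from RefSeq tables on GRCh38.p14, matched by name for 13226 tested genes, and no coordinate of the hg19 counts was used.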

Additional observations from a re-analysis of the deposited data

How the results depend on the processing

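The number of genes called between B412_GSK126 and MT_mock, 257, was 267 with RLE scaling and moved with most other choices. Counts are given in the order GSK126 against MT_mock, B412_mock against MT_mock, GSK126 against mock, and persisting line differences. Without the library-set term edgeR called 0, 0, 0 and 0, with 268, 343 and 32 genes at an unadjusted p under 0.05 in the 3 comparisons. DESeq2 called 604, 684, 4 and 384, and no filter on low counts gave 892, 881, 34 and 549. Fitting only the 5 libraries of B412_GSK126 and MT_mock called 102. With 1 library left out, the counts ranged from 72 to 693, from 33 to 587, from 0 to 3 and from 31 to 390. The lowest came without B412_GSK126 replicate 2 for the first and without B412_mock replicate 1 for the line differences and the persisting ones, and the highest of these 3 came without MT_mock replicate 1. An arm left with 1 library is assumed to vary like the others.

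Deviations from the group means correlated at 0.62 between MT_mock 1 and B412_GSK126 1, both of set 1. Between MT_mock 2 and B412_GSK126 2, which lie in different sets, they correlated at -0.63. These signs follow the set split, so they cannot show whether equal replicate numbers pair the libraries. A replicate block in place of the library-set term called 0, 0, 0 and 0, with 746, 890 and 60 at an unadjusted p under 0.05, and under it MPO had a log2 change of 0.079 (adjusted p = 0.964), against -0.67. A replicate block with the library-set term called 573, 943, 89 and 460, on 1 residual degree of freedom. Its common biological coefficient of variation was 13.9%, against 21.9% in the main fit. Both of the following were chosen after seeing the data. Library set 1 alone called 87, 147, 0 and 63, and limma-voom 318, 295, 1 and 192. Set 2 alone has no replicate within a group and gives no test.

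Of 52 named genes called with GSK126, 0 lost the call with DESeq2, RLE scaling or no filter, 21 did with the 5 libraries only and all 52 without the set term. The fit of the 5 libraries kept 1 of 6 serine synthesis and stress calls, 1 of 3 granule calls and 1 of 3 retinoic acid response calls. It kept 1 of 2 NF-kappa-B subunit and regulator calls, 2 of 2 HOX calls and 0 of 1 developmental regulator calls. The depth, with 3 counts standing for 0.202 to 0.236 CPM, limits genes at or near 0 in a group to bounds or wide intervals.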

Other observations

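Of the 6 genes with the lowest p between B412_GSK126 and B412_mock, 3 were not described above, and their values against the parental cells are given here with no call. TMEM158, a membrane protein gene first described in RAS-induced senescence, had 5.32, 4.44 and 3.1 CPM in MT_mock, 0.785 and 1.93 CPM in B412_mock and 6.82 and 11.9 CPM with GSK126. Its GSK126 libraries read above both other groups, with a log2 change of 0.97 ± 0.46 from the parental cells (edgeR adjusted p = 0.354). IGFBP2, a binding protein for insulin-like growth factors, had 255, 271 and 347 CPM in MT_mock, 209 and 212 CPM in B412_mock and 349 and 439 CPM with GSK126. Its log2 change from the parental cells was 0.36 ± 0.15 (edgeR adjusted p = 0.276). KAZN, the kazrin gene, had 10.1, 8.6 and 18.3 CPM in MT_mock, 5.5 and 13.2 CPM in B412_mock and 13.3 and 34.4 CPM with GSK126 (log2 0.64 ± 0.25, edgeR adjusted p = 0.247). In these 3 genes the sign of the difference from the parental cells was negative in B412_mock, at -1.80, -0.51 and -0.67, and positive with GSK126, and no difference passed in either comparison. Both use the same MT_mock libraries. The other 3 genes were MPO, GALNT14 and DGAT2.

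Of the 16 genes at 0 in the parental cells with at least 20 counts in a B412 group, 12 had a higher summed count with GSK126 than in B412_mock and 4 a lower one. Those named here were picked after their values were seen, and those tested did not pass against B412_mock (edgeR adjusted p = 1). THRB, PTPRM and LYPD6B had too few reads to be tested. BOLA1, a mitochondrial iron-sulfur protein gene, had 0 counts in MT_mock, 84 in B412_mock and 139 with GSK126, and was called against MT_mock in both B412 groups. The summed counts of the aminopeptidase gene ANPEP, which encodes CD13, were 0 in MT_mock, 18 in B412_mock and 56 with GSK126. Those of the thyroid hormone receptor gene THRB were 0, 6 and 34, and those of the receptor phosphatase gene PTPRM 0, 5 and 30. The 4 with the reverse order were LYPD6B, with 35 counts in B412_mock and 6 with GSK126, TMEM52B with 69 and 39, ZNF615 with 26 and 19, and FCAR with 22 and 10.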
